A study of Mus musculus with 8 samples.

Results

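Fibroblasts that carried transcripts of Pi16 or Dpp4 were examined in subcutaneous MB49 tumors of mice whose Atg7 had or had not been deleted. The cells were chosen by their deposited values, natural logs of UMIs per 10000 plus 1. A cell was counted as a Pi16/Dpp4 fibroblast where those of Col1a1, Col3a1 and Dcn were all at 2 or more, Ptprc, C1qa and Krt18 were at 0, and Pi16 or Dpp4 was above 0. The rule found 899 such cells among 29496 (3.05%), of which 847 came from Atg7-deleted hosts and 52 from wild-type hosts. The same rule without Pi16 and Dpp4 found 1326 fibroblasts, so that 427 fibroblasts had no UMI (unique molecular identifier, 1 counted molecule) of either gene. These 427 are called the other fibroblasts.

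MB49 is a mouse urothelial cancer line, and its cells did not come from the hosts. Atg7-deleted hosts (strain C57BL/6 UbcreERT2/+;Atg7f/f, written Atg7∆/∆ after deletion) gave libraries 3, 4, 7 and 8, and wild-type hosts (C57BL/6 UbcreERT2/+;Atg7+/+) gave libraries 1, 2, 5 and 6. Both kinds of host carried the tamoxifen-inducible Cre, which is expressed from the ubiquitin C promoter and is therefore not limited to fibroblasts, and both were treated with tamoxifen on 4 days, 1 week before the tumor cells were injected. Tumors were taken 3 weeks after injection, and single cells were sequenced with a 10x Genomics 5' kit after dissociation, filtering through mesh and a density gradient of the kind used for mononuclear blood cells. That gradient can alter how many fibroblasts a library keeps. Each mouse bore 2 tumors, and which tumors shared a mouse is not labelled, so p-values measure only the spread between libraries and may be too small. Age and sex of the hosts are not given in the labels.

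Pi16 encodes a secreted peptidase inhibitor-like protein, and Dpp4 (CD26) a membrane-bound dipeptidyl peptidase. In mouse skin and fat, fibroblasts with these transcripts lie in the fascia, the reticular interstitium and the adventitia of vessels, and they share markers such as Clec3b, Cd34, Ly6c1 and Sema3c. In subcutaneous fat, Dpp4-positive cells are known as progenitors that can give rise to committed preadipocytes. Atg7 encodes an enzyme that the elongation of the autophagosome membrane needs.

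Libraries held between 964 and 6070 cells and between 4371773 and 59235799 UMIs. The cell barcodes fell into 2 sets with mostly different starting bases, libraries 1 to 4 (set A) and 5 to 8 (set B), each with 2 libraries of each genotype. At most 46 barcodes were shared by a pair of libraries. Library 2 held only 5 Pi16/Dpp4 fibroblasts and was left out of the means and tests of gene levels, which compare 4 libraries with 3.

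Several libraries stood apart in ways that touch the results. Free RNA can place UMIs in droplets of other cells, so Pi16 was also counted in Ptprc-positive leukocytes. For this, each cell with at least 1000 UMIs was thinned to 1000, and cells with fewer were left out. In library 3, 9.26% of leukocytes had a Pi16 UMI, against 37.0% of the fibroblasts, with median depths before thinning of 4975 and 14159.5 UMIs. The leukocyte share was 2.76%, 5.07% and 0.657% in deleted libraries 4, 7 and 8, and from 0.155% to 0.802% in wild-type libraries 1, 2 and 5. In wild-type library 6 it was 0 of 889 cells, which allows a share of up to 0.338%. In wild-type library 1, 10 of 15 Pi16/Dpp4 fibroblasts had a UMI of Krt8, a keratin of the tumor line, against 30 of 398 cells in deleted library 3, 8 of 28 in deleted library 4 and 0 in every other library. Macrophage markers (C1qb, C1qc, Lyz2, Csf1r and Cd68, all 5 detected in libraries 3, 4, 8 and 1) summed to 0.110 to 3.67 UMIs per 10000 in deleted libraries, and to 0 to 2.76 UMIs per 10000 in wild-type libraries. At least 2 of them were detected in 214 of 398, 13 of 28, 0 of 258 and 8 of 163 cells in deleted libraries 3, 4, 7 and 8. In wild-type libraries 1, 2, 5 and 6 these were 3 of 15, 0 of 5, 0 of 15 and 0 of 17 cells. The part of these transcripts in the results below was not tested.

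The genes used by the rule describe the cells and support nothing further. Levels are given as UMIs of a gene per 10000 UMIs of a cell, averaged over the cells of a library. Pi16 (chromosome 17, 29317680 to 29330593, mm10) stood at 10.9, 21.3, 14.8 and 7.09 UMIs per 10000 in deleted libraries 3, 4, 7 and 8, and at 18.9, 5.79, 15.9 and 14.4 in wild-type libraries 1, 2, 5 and 6. Dpp4 (chromosome 2, 62330073 to 62412231) was scarcer, with levels of 0.997, 1.01, 1.30 and 0.654 UMIs per 10000 in the deleted libraries and 0.954, 4.71, 2.28 and 1.38 in the wild-type libraries. The genotypes overlapped for both genes. Pi16 without Dpp4 was found in 548 cells (61.0%), both genes in 312 (34.7%) and Dpp4 without Pi16 in 39 (4.34%). Of the 39, 12 were in library 3, 15 in library 7, 11 in library 8 and 1 in library 2. In the remaining libraries no cell had Dpp4 alone, which for library 4 leaves a share of up to 12.3% within the exact (Clopper-Pearson) 95% interval.

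The threshold on the matrix genes cut few cells, but the exclusion of cells with Ptprc, C1qa or Krt18 cut many in some libraries. Among Pi16/Dpp4 fibroblasts, 39 had the lowest of the 3 matrix genes between 2 and 2.5, just inside the threshold. Of cells that met every other condition, 16 lay just outside at 1.5 to 2, 14 lay lower but above 0, and 146 had at least 1 matrix gene at 0. With Ptprc, C1qa and Krt18 under 2 instead of at 0, deleted libraries 3, 4, 7 and 8 held 740, 58, 272 and 202 such cells, against 398, 28, 258 and 163. Wild-type libraries 1, 2, 5 and 6 held 38, 9, 17 and 17, against 15, 5, 15 and 17. The mean shares of all cells were then 13.3% and 0.631% (exact permutation p = 0.0286).

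The label was checked against Clec3b, a supplied marker that the rule did not use. Clec3b encodes tetranectin, a plasminogen-binding lectin. A Clec3b UMI was found in 88.9%, 67.9%, 92.6% and 96.3% of Pi16/Dpp4 fibroblasts in deleted libraries 3, 4, 7 and 8, and in 40.0%, 60.0%, 80.0% and 64.7% in wild-type libraries 1, 2, 5 and 6. Its level was 6.46, 6.00, 17.1 and 16.8 UMIs per 10000 in the deleted libraries and 2.44, 5.0, 22.1 and 10.3 in the wild-type libraries. Libraries of set B were the higher ones in both genotypes. Other markers of such cells were present throughout. Ly6a (Sca-1) stood at 18.5 ± 2.34 UMIs per 10000 in deleted libraries (SD, n = 4) and at 20.4 ± 5.95 in wild-type libraries (SD, n = 3), and Cd34 at 7.72 ± 2.79 and 8.23 ± 0.993. Pdgfra, a receptor of mesenchymal cells, stood at 2.40 ± 0.468 and 2.23 ± 0.773 UMIs per 10000. Whether the cells lay in fascia cannot be read from dissociated tumors.

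Pi16/Dpp4 fibroblasts were a larger share of all cells in the 4 libraries of Atg7-deleted hosts than in the 4 libraries of wild-type hosts, but the genotypes overlapped once tumor-line cells were left out of the total. They were 10.1%, 1.14%, 26.8% and 3.26% of the cells in deleted libraries 3, 4, 7 and 8, and 0.654%, 0.159%, 0.247% and 0.303% in wild-type libraries 1, 2, 5 and 6. The exact 95% intervals of the nearest libraries were 0.760% to 1.65% in deleted library 4 and 0.366% to 1.08% in wild-type library 1, and they cover counting error only. The means were 10.3 ± 11.6% and 0.341 ± 0.217% (SD, n = 4 each), a difference of 9.97 percentage points (two-sided exact permutation test over libraries, p = 0.0286, the smallest that 4 against 4 allows). Within set A the mean shares were 5.61% and 0.406%, and within set B 15% and 0.275%. Krt18-positive, Ptprc-negative cells, taken as tumor-line cells, numbered 40 of 3948, 147 of 2454, 89 of 964 and 79 of 5001 cells in deleted libraries 3, 4, 7 and 8, against 1330 of 2295, 1400 of 3153, 3956 of 6070 and 3222 of 5611 in wild-type libraries 1, 2, 5 and 6. Without them Pi16/Dpp4 fibroblasts were 10.2%, 1.21%, 29.5% and 3.31% of the remaining cells in the deleted libraries and 1.55%, 0.285%, 0.71% and 0.712% in the wild-type libraries. Library 4 then lay below library 1, and the difference of 10.2 percentage points had an exact permutation p = 0.0571 (n = 4 each), an alternative chosen after seeing the data. Over all cells, permutation within the barcode sets gave p = 0.0556, the smallest that this exact test allows. Library 7 had the fewest cells, and without it the difference was 4.49 percentage points (exact permutation p = 0.0286). Leaving out any 1 wild-type library left the difference between 9.91 and 10.1 percentage points with an exact permutation p = 0.171, although the genotypes still did not overlap. With cells thinned to 1000 UMIs, those under 1000 left out and the rule applied to what remained, the mean shares were 8.76% and 0.278%. The thinned totals were 3410, 2130, 775 and 3855 cells in deleted libraries 3, 4, 7 and 8. They were 2079, 2977, 5222 and 4859 in wild-type libraries 1, 2, 5 and 6.

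**Figure D1:**
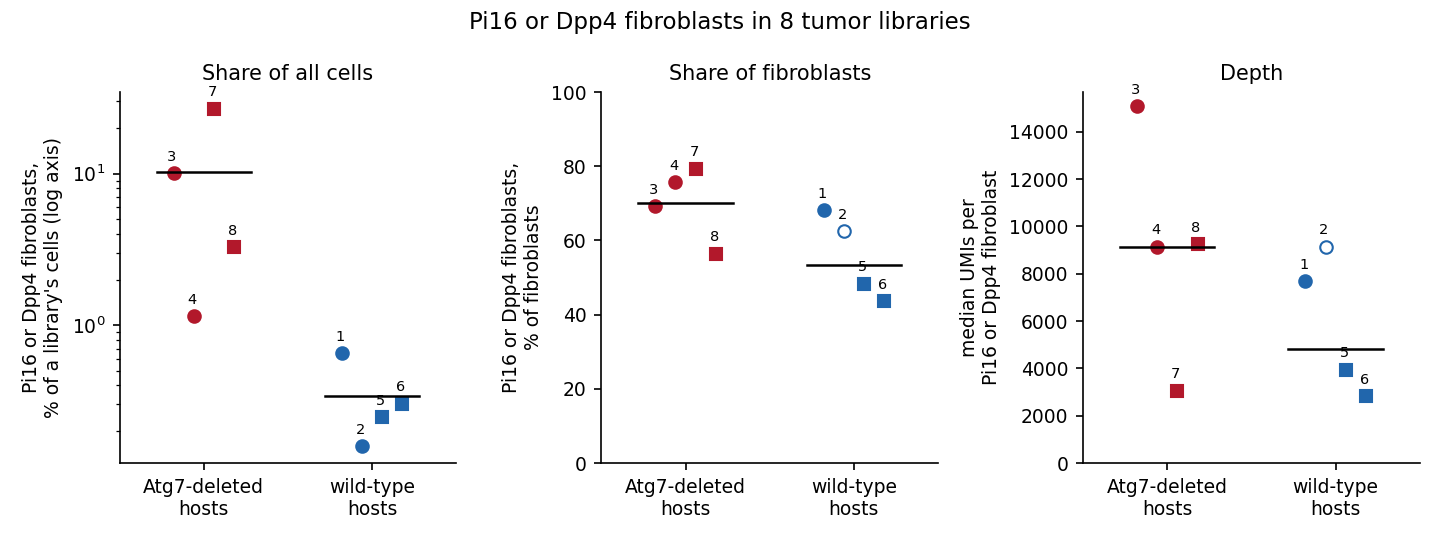
Pi16/Dpp4 fibroblasts per library as a percent of all cells (left, log axis) and of fibroblasts (middle), and their median UMIs per cell (right), with Atg7-deleted hosts left of wild-type hosts in each panel. Points are libraries with their numbers (circles, barcode set A, squares, set B, open, under 10 cells and not in the mean) and lines are means; deleted libraries lie at 1.14% to 26.8% of all cells and wild-type libraries at 0.159% to 0.654%.

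Fibroblasts as a whole separated the genotypes in the same way as a share of all cells. Of all cells, fibroblasts were 14.6%, 1.51%, 33.7% and 5.78% in deleted libraries 3, 4, 7 and 8, and 0.959%, 0.254%, 0.511% and 0.695% in wild-type libraries 1, 2, 5 and 6. The other fibroblasts numbered 177, 9, 67 and 126 in the deleted libraries and 7, 3, 16 and 22 in the wild-type libraries. Among the fibroblasts alone the genotypes overlapped. The share of fibroblasts with Pi16 or Dpp4 was 69.2%, 75.7%, 79.4% and 56.4% in deleted libraries 3, 4, 7 and 8, and 68.2%, 48.4% and 43.6% in wild-type libraries 1, 5 and 6. The means of 70.2 ± 10.1% (SD, n = 4) and 53.4 ± 13.0% (SD, n = 3) differed by 16.8 percentage points (exact permutation p = 0.114). Within each barcode set they did not overlap, with means of 72.4% and 68.2% in set A, where 1 wild-type library was used, and 67.9% and 46.0% in set B (exact permutation within sets, p = 0.0556, the smallest it allows). After thinning to 1000 UMIs the means were 41.3% and 28.3% over 4 libraries each (exact permutation p = 0.143). Library 2 was included because it then passed the minimum of 10 fibroblasts. The thinned rule did not choose the same cells, as UMIs of Ptprc, C1qa and Krt18 can be lost too. It found 850, 66, 280 and 316 fibroblasts in deleted libraries 3, 4, 7 and 8, against 575, 37, 325 and 289 before. In wild-type libraries 1, 2, 5 and 6 it found 36, 15, 28 and 36, against 22, 8, 31 and 39. The detection of a scarce transcript depends on depth, and the median UMIs per Pi16/Dpp4 fibroblast were 15065.5, 9144, 3065 and 9246 in deleted libraries 3, 4, 7 and 8, against 7693, 3936 and 2821 in wild-type libraries 1, 5 and 6. Their means of 9130 ± 4900 and 4817 ± 2553 UMIs (SD, n = 4 and 3) gave an exact permutation p = 0.171.

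Compared with the other fibroblasts of the same libraries, Pi16/Dpp4 fibroblasts had more transcripts of 17 of 24 adventitial fibroblast genes and 6 of 11 complement genes, and fewer of 4 of 14 myofibroblast genes, among them Tpm2 and Acta2 of the contractile apparatus. The comparison used libraries 3, 7, 8, 5 and 6, which held at least 10 cells of both kinds. Log values were averaged over cells, as log2(1 + UMIs per 10000), and compared with limma, with the library as a block and Benjamini-Hochberg adjustment over 5333 genes. At an adjusted p under 0.05, 97 genes passed (1.82% of those tested), of which 92 were higher (1.73%) and 5 lower (0.0938%). Pi16, Dpp4 and Dcn are among the 92 and were used by the rule. Differences below are on this log2 scale and understate the fold of scarce genes. The median over all genes tested was 0.04.

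Among genes that the rule did not use, Clec3b had the largest difference. In Pi16/Dpp4 fibroblasts its level was 6.46, 17.1, 16.8, 22.1 and 10.3 UMIs per 10000 in libraries 3, 7, 8, 5 and 6, against 2.34, 13.0, 5.73, 1.48 and 1.72 in the other fibroblasts. Every library moved in the same direction, although library 7 had a high level in both kinds. The log2 difference was 1.86 (SE 0.24, limma adjusted p = 2.2e-05). Sema3c, a secreted semaphorin that guides migrating cells and axons, stood at 5.06 ± 0.747 UMIs per 10000 in Pi16/Dpp4 fibroblasts and at 1.6 ± 1.5 in the other fibroblasts (SD, n = 5 libraries; log2 difference 1.14, adjusted p = 9.9e-05). Cd55, a membrane protein that breaks down complement convertases, stood at 3.90 ± 1.98 and 1.54 ± 2.01 UMIs per 10000 (log2 difference 0.94, adjusted p = 9.9e-05). Both were higher in 5 of 5 libraries.

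The list of universal adventitial fibroblast genes moved most as a group. Of its 24 genes tested, 17 passed as higher and 0 as lower, and all 24 differences were positive, with a median of 0.65 against 0.04 for all genes. Besides Clec3b, Sema3c and Cd55 it holds Tnxb, which encodes the matrix glycoprotein tenascin-X (log2 difference 0.95, adjusted p = 0.0020), Anxa3, an annexin (0.79, adjusted p = 0.0022), Ly6c1, a surface antigen (1.07, adjusted p = 0.0072) and Cd34, a sialomucin (1.03, adjusted p = 0.0099). Tnxb was at 4.73 ± 2.72 UMIs per 10000 in Pi16/Dpp4 fibroblasts and 2.34 ± 1.35 in the other fibroblasts (SD, n = 5). Cd34 was at 7.91 ± 2.42 and 4.24 ± 3.26 UMIs per 10000, and on this linear scale it was higher in 4 of 5 libraries. Il33, an alarmin of the same list, did not pass (0.48, adjusted p = 0.119). After thinning, 3 of the 20 list genes that could be tested passed, with a median of 0.48.

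Complement genes had the next largest number of calls. Of 11 tested, 6 were higher and 0 lower, with a median of 0.51. After thinning, 1 of the 7 that could be tested passed, with a median of 0.58. C3, the central complement component, had 64.3, 23.9, 20.7, 9.27 and 6.80 UMIs per 10000 in the Pi16/Dpp4 fibroblasts of libraries 3, 7, 8, 5 and 6, and 38.8, 17.1, 11.6, 0.527 and 1.83 in the other fibroblasts. It was higher in each library, and library 5 had the widest gap on the log scale (log2 difference 1.40, SE 0.25, limma adjusted p = 0.0021). C4b, which takes part in the classical pathway, stood at 7.81 ± 5.07 and 4.42 ± 4.61 UMIs per 10000 (SD, n = 5; log2 difference 1.02, adjusted p = 0.0036), and C1s1, a protease of the first component, at 9.84 ± 2.53 and 6.32 ± 3.21 (0.95, adjusted p = 0.033). C1s1 lost the call in 10 alternatives and kept it in 2. C1s1 has a close paralog, C1s2, and reads of such copies may be split. Cd55, Clu and Masp1 were the other 3 members that passed. Lbp, which encodes a lipopolysaccharide-binding protein and is on none of the lists, stood at 5.10 ± 2.22 and 1.83 ± 1.30 UMIs per 10000 (log2 difference 1.14, adjusted p = 9.9e-05).

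Genes of the extracellular matrix changed in part. The protease list had 2 of 19 genes higher, Htra3, a secreted serine protease (7.73 ± 1.76 and 3.11 ± 1.13 UMIs per 10000; log2 difference 1.10, adjusted p = 0.0018), and Adamts5, an aggrecanase (6.22 ± 2.11 and 3.0 ± 1.72; 1.09, adjusted p = 0.0021). Of 7 genes on the list of Wnt and BMP antagonists 6 differences were positive, with a median of 0.61, and 2 passed. Sfrp4, a secreted Frizzled-related protein (0.91, adjusted p = 4.2e-04), and Dpt, the matrix protein dermatopontin (1.35, adjusted p = 0.0039), were those 2. Emilin2, Ltbp1 and Efemp1 were the 3 higher genes of 13 for elastic fibres and microfibrils, and Tnxb, Prelp and Ogn the 3 of 12 proteoglycan and matricellular genes. Of 20 collagen genes 1 passed, Col14a1 (8.81 ± 3.0 and 4.42 ± 2.51 UMIs per 10000; 1.18, adjusted p = 0.0033), a collagen that binds to the surface of fibrils. Islr, a marker of mesenchymal stroma, stood at 3.37 ± 0.956 and 1.2 ± 0.740 UMIs per 10000 (0.86, adjusted p = 7.2e-04), and Scara5, a ferritin receptor, at 2.35 ± 0.960 and 0.758 ± 0.695 (0.73, adjusted p = 5.3e-04).

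Growth factor and adipose genes gave a few calls each. Igfbp4 and Igfbp5, binding proteins of insulin-like growth factors, were the 2 higher genes of 8 on their list (log2 differences 1.00 and 0.63, adjusted p = 0.032 and 0.033). Each lost the call in 10 alternatives and kept it in 2. Lpl, lipoprotein lipase, and Apod, a lipid carrier, were the 2 of 7 preadipocyte genes (0.79 and 0.72, adjusted p = 0.018 and 0.0036). Lpl and the transcription factor Ebf2 were also the 2 of 9 on the list of Col15a1 parenchymal fibroblasts. After thinning, 0 of 4 tested genes passed on the preadipocyte list and 0 of 4 on the Col15a1 list. Tgfbr2 and Ltbp1 were the 2 of 11 TGF-beta genes (0.76 and 0.36, adjusted p = 0.040 and 0.027).

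Of the 5 genes that fell, 4 are on the myofibroblast and Lrrc15 fibroblast list. Of 14 genes tested from that list, 4 were lower and 0 higher, with a median of -0.25. After thinning, 0 of the 6 that could be tested passed, with a median of -0.40. Tpm2, a tropomyosin of the contractile apparatus, had 0.319, 0.225, 0.303, 0 and 0.723 UMIs per 10000 in the Pi16/Dpp4 fibroblasts of libraries 3, 7, 8, 5 and 6, and 0.613, 0.583, 0.913, 3.28 and 3.26 in the other fibroblasts. It was lower in 5 of 5 libraries, and most of all in the wild-type libraries 5 and 6 (log2 difference -0.60, SE 0.13, limma adjusted p = 0.010). Tnc, the matrix glycoprotein tenascin-C, stood at 4.14 ± 4.03 and 8.14 ± 3.91 UMIs per 10000 (SD, n = 5; -0.88, adjusted p = 0.013), and on this linear scale was lower in 4 of 5 libraries. Acta2, smooth muscle actin, stood at 0.518 ± 0.568 and 1.94 ± 1.92 (-0.41, adjusted p = 0.036), and Inhba, the activin A subunit, at 0.245 ± 0.151 and 1.08 ± 0.464 (-0.28, adjusted p = 0.040). Slc16a3, a lactate exporter, was the fifth gene to fall (0.428 ± 0.285 and 1.38 ± 0.578 UMIs per 10000; -0.44, adjusted p = 0.017). Over the alternatives, Tpm2, Tnc, Acta2, Inhba and Slc16a3 lost the call in 6, 4, 9, 8 and 8 and kept it in 5, 8, 2, 3 and 4.

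**Figure D2:**
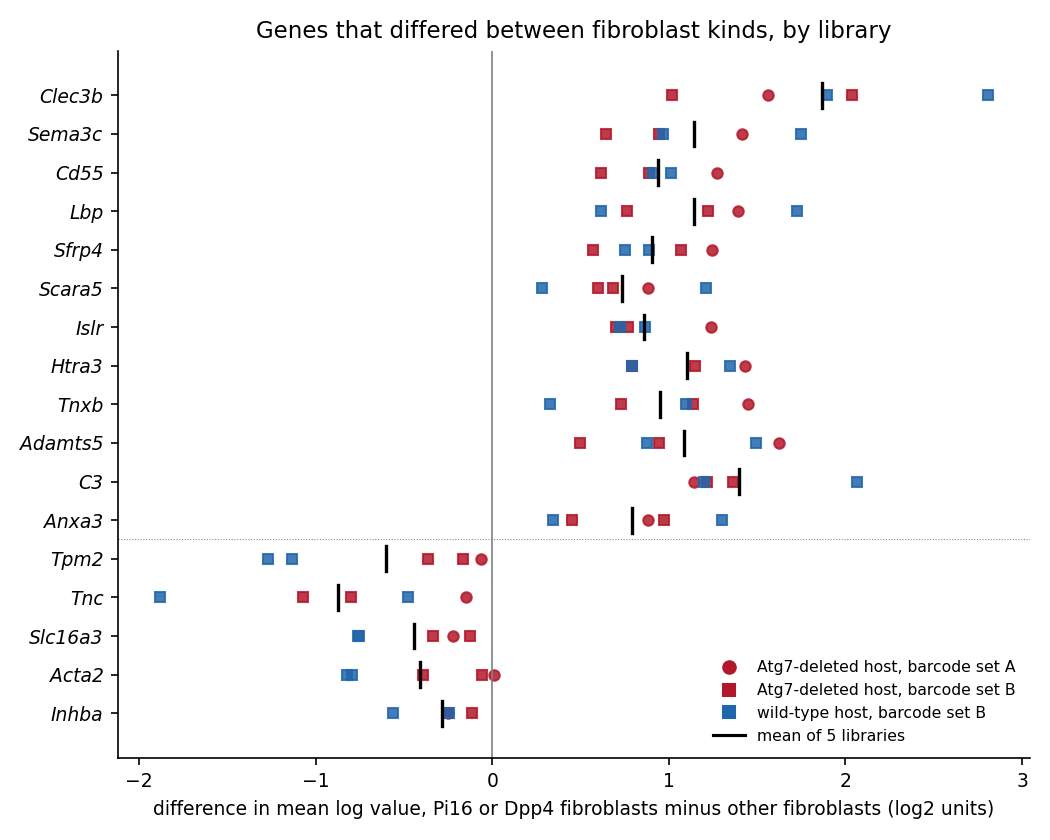
Difference in mean log value between Pi16/Dpp4 fibroblasts and the other fibroblasts of the same library (x axis, log2 units) for the 12 higher genes with the smallest adjusted p, the rule's own genes left out, and the 5 lower genes. Points are libraries, colored by host genotype and shaped by barcode set, and bars are means of the 5 libraries; Clec3b has the largest mean of those shown, 1.86.

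No gene passed on the lists for interferon response, MHC class I or II, immediate early genes, heat shock, glycolysis and hypoxia, autophagy, NRF2 targets, lysosome, inflammatory cytokines, metallothioneins, cell cycle or cytosolic ribosomal proteins. The medians furthest from 0 were those of MHC class II, at -0.23 with 0 of 4 differences positive, and of glycolysis and hypoxia, at -0.22 with 4 of 20 positive and a limma adjusted p of 0.064 for Bnip3, a mitophagy receptor induced by low oxygen. For autophagy genes 13 of 15 differences were positive, with a median of 0.05, close to that of all genes.

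**Figure D3:**
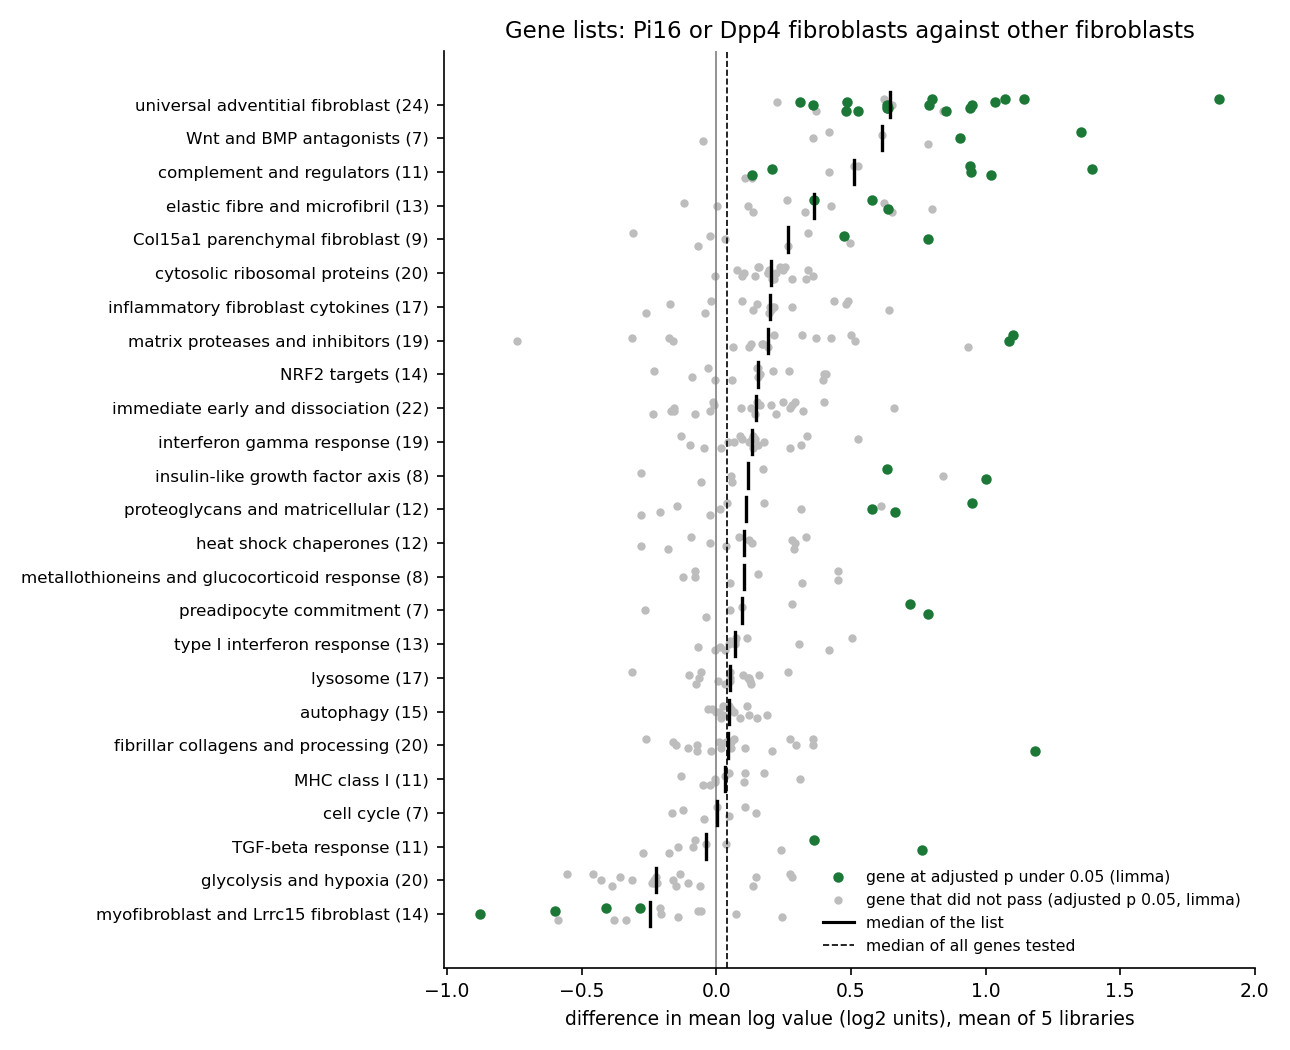
Log2 difference of each tested gene of 25 lists, Pi16/Dpp4 fibroblasts minus other fibroblasts, with the number of genes tested in brackets. Points are genes (green at an adjusted p under 0.05), short bars list medians and the dashed line the median of all genes; adventitial genes have a median of 0.65 and myofibroblast genes of -0.25.

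Depth and macrophage RNA differed between the kinds of fibroblast. The macrophage markers summed to 3.67, 0.110, 1.15, 0 and 0.0386 UMIs per 10000 in Pi16/Dpp4 fibroblasts of libraries 3, 7, 8, 5 and 6, and to 17.0, 0.296, 1.59, 0.158 and 0.0717 in the other fibroblasts, and their part in the differences was not tested. Median UMIs of Pi16/Dpp4 fibroblasts and of the other fibroblasts were 15065.5 and 1859 in library 3, 3065 and 1495 in library 7, and 9246 and 7117 in library 8, but 3936 and 4349 in library 5 and 2821 and 6590.5 in library 6. After thinning to 1000 UMIs, 13 of 1396 genes passed (0.931%), all among the 97, of which 64 could be tested. The 13 were Adamts5, C3, Clec3b, Col14a1, Dcn, Dpt, Gsn, Htra3, Lbp, Ly6c1, Pcsk6, Pi16 and Sema3c. With UMIs summed over cells 2 genes passed, Htra3 and Pi16. Without library 3 there were 28 calls and without library 6 there were 61.

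Within the Pi16/Dpp4 fibroblasts, cells with Pi16 alone and cells with Dpp4 alone were compared in libraries 3, 7 and 8, with 12, 15 and 11 cells that had Dpp4 alone. Of 6588 genes 3 passed with limma at an adjusted p under 0.05 (0.0455%), 2 higher (0.0304%) and 1 lower (0.0152%). Pi16 and Dpp4 are among the 3 and chose the cells. The third, Gm42418, is a noncoding transcript on chromosome 17 that lies on a ribosomal RNA repeat (log2 difference 0.59, SE 0.11, adjusted p = 0.0025). At an unadjusted p under 0.05 there were 380 genes (5.77%). Thinned to 1000 UMIs, 62 of 1917 genes passed, 50 higher and 12 lower (3.23%). That fit also left out cells under 1000 UMIs, with 10, 13 and 11 cells that had Dpp4 alone, and tested fewer genes. The cause of the larger count was not tested.

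Levels across libraries varied by gene as well. Over the 7 libraries with at least 10 cells, the coefficient of variation of the level was 14.5% for Tgfbr2, 20.4% for Ly6a, 26.1% for Cd34 and 26.4% for Sema3c. It was 62.1% for Clec3b, 72.5% for C3 and 95.1% for Tnc. Gm42418 alone took 803, 1672, 579 and 355 UMIs per 10000 in deleted libraries 3, 4, 7 and 8 and 1133, 1296, 415 and 203 in wild-type libraries 1, 2, 5 and 6, which shifts the per-cell scale of all other genes by library. A UMI of Mki67, a cell cycle marker, was found in 11 of 398, 1 of 28, 7 of 258 and 4 of 163 cells in deleted libraries 3, 4, 7 and 8, and in 1 of 17 cells in wild-type library 6. Top2a, another such marker, was found in 51 of 398, 4 of 28, 8 of 258 and 2 of 163 cells in the deleted libraries, and in 2 of 15, 0 of 5, 0 of 15 and 2 of 17 cells in wild-type libraries 1, 2, 5 and 6.

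Between host genotypes no gene passed in Pi16/Dpp4 fibroblasts. Of 9419 genes tested in 4 deleted and 3 wild-type libraries, 0 had an adjusted p under 0.05 with limma (0% in either direction), 1003 (10.6%) had an unadjusted p under 0.05, and 1015 (10.8%) did not overlap between the genotypes. The median difference over all genes was 0.03. With 3 wild-type libraries of 15 to 17 cells, 0 calls do not show that the genotypes were alike. With UMIs summed over cells and scaled by median ratios, 144 were higher and 2 lower (1.53% and 0.0212%), but there the median of all genes was itself shifted by 0.51, and with scaling by library totals 0 passed. Without library 4 there were 2 calls (C1rb and Pianp), without library 5 there were 2 (Col8a1 and Thbs4, both lower), and without library 8 there were 8.

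Atg7 itself was close to the detection limit in these cells. It lies on chromosome 6 (114643097 to 114860614) and stood at 0.0506, 0.474, 0.0289 and 0.0470 UMIs per 10000 in deleted libraries 3, 4, 7 and 8, and at 0, 0, 0.0948 and 0 in wild-type libraries 1, 2, 5 and 6. The deleted libraries held 44 Atg7 UMIs among 8424706, and the wild-type libraries 1 among 262024. Tags of the gene may lie outside the deleted part, so these counts do not check the deletion.

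Pianp and C1rb came nearest to the threshold, and they were singled out after their values were seen. Pianp encodes a type I membrane protein that binds the paired receptor PILR-alpha, and C1rb a copy of the complement protease C1r. Pianp stood at 1.33, 0.816, 0.941 and 0.934 UMIs per 10000 in deleted libraries 3, 4, 7 and 8, and at 0.0585, 0, 0 and 0 in wild-type libraries 1, 2, 5 and 6. C1rb stood at 0.761, 0.607, 1.63 and 0.625 UMIs per 10000 in the deleted libraries and at 0 in all 4 wild-type libraries, of which libraries 5 and 6 do not list the gene. For both, every deleted library lay above every wild-type library. Over the libraries of the fit, 1015 of 9419 genes (10.8%) did not overlap, in 1 direction or the other. Neither gene would have met the detection filter from the wild-type libraries alone, so this separation supports nothing further. The log2 difference of Pianp was 0.70 (SE 0.12), and the limma adjusted p was 0.062 for both genes. Over 16 alternatives the adjusted p of each ran from 0.011 to 0.340, and 4 of them called both. Summed over cells, C1rb had 738 of 8424706 UMIs in deleted hosts and 0 of 262024 in wild-type hosts (libraries 1, 5 and 6). Of the 8424706 UMIs, library 3 alone held 5553379. Against a floor of 3 UMIs over the wild-type group the ratio is 7.65. This takes C1rb as 0 in libraries 5 and 6, which do not list it. Library 1, which lists it, held 105189 of the 262024 UMIs, so the ratio is overstated if only counted zeros are used. The ratio covers counting error only and not the spread between libraries.

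Both genes lie on chromosome 6, as Atg7 does. Pianp (124996694 to 125003096) is 10.1 Mb from Atg7 and C1rb (124570294 to 124581171) 9.71 Mb, in a cluster with C1ra, C1s1 and C1s2. C1s2 had 857 summed UMIs in deleted hosts and 0 in the 3 wild-type libraries, and 0.216 UMIs per 10000 in the left-out library 2. Its pooled ratio to the floor, 8.88, likewise covers counting error only. Over libraries C1s2 did not pass (limma adjusted p = 0.358). C1ra, the paralog of C1rb, was at 6.45, 5.03, 5.40 and 4.11 UMIs per 10000 in deleted libraries 3, 4, 7 and 8, and at 5.55, 7.06, 2.38 and 1.09 in wild-type libraries 1, 2, 5 and 6, with overlap (adjusted p = 0.416). Reads of these paralogs may be split between the copies, so the levels of single copies are uncertain.

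Both genes were also counted outside the Pi16/Dpp4 fibroblasts. In the other fibroblasts, Pianp was at 0.790, 1.23, 0.887 and 0.661 UMIs per 10000 in deleted libraries 3, 4, 7 and 8 (9 cells in library 4), and at 0, 0, 0.0792 and 0 in wild-type libraries 1, 2, 5 and 6. In Ptprc-positive leukocytes it took 1.08, 0.588, 0.373 and 0.485 summed UMIs per 10000 in the deleted libraries, against 0.166, 0.154, 0.159 and 0.0785 in the wild-type libraries. In Krt18-positive, Ptprc-negative cells, taken as tumor-line cells without the host genotype, Pianp took 0.933, 0.325, 0.207 and 0.275 in deleted libraries. It took 0.340, 0.402, 0.309 and 0.252 in wild-type libraries, and the genotypes overlapped. A Pi16 UMI was found in 18 of 40, 12 of 147, 0 of 89 and 0 of 79 of these cells in deleted libraries 3, 4, 7 and 8. Whether all of them were of the tumor line was not tested. In leukocytes C1rb took 0.236, 0.0419, 0.153 and 0.0496 summed UMIs per 10000 in deleted libraries 3, 4, 7 and 8. It had none in 527 and 1303 leukocytes of wild-type libraries 1 and 2, where 3 UMIs per library would be 0.0104 and 0.00398 per 10000. Wild-type libraries 5 and 6, with 883 and 1062 leukocytes, do not list C1rb and give no count of it. In the Krt18-positive, Ptprc-negative cells C1rb took 0.252, 0.0374, 0 and 0.0106 summed UMIs per 10000 in deleted libraries 3, 4, 7 and 8 (6, 2, 0 and 1 cells with a UMI). It took 0.00381 and 0.00204 in wild-type libraries 1 and 2, and again has no count in libraries 5 and 6. In libraries 3 and 4 the Krt18-positive, Ptprc-negative cells thus held about as much C1rb as the leukocytes, and the part of free RNA in these values was not tested. These values were chosen after those of the fibroblasts had been seen and are given without a test.

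**Figure D4:**
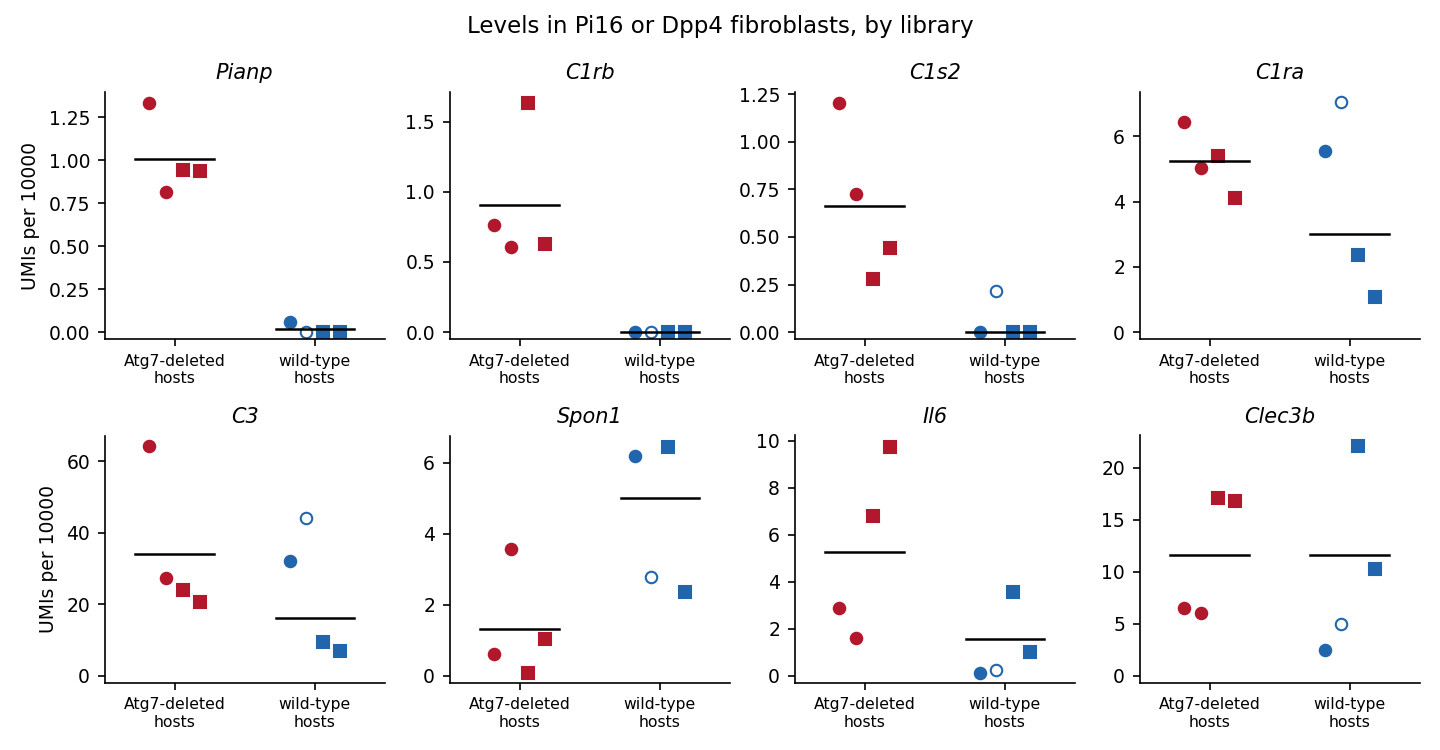
Levels of 8 genes in Pi16/Dpp4 fibroblasts, in UMIs per 10000, with Atg7-deleted hosts left of wild-type hosts. Points are libraries (circles, barcode set A, squares, set B, open, library 2 with 5 cells, not in the mean) and lines are means. Of 9419 genes tested, 1015 (10.8%) did not overlap between the genotypes, among them Pianp and C1rb, chosen after their values were seen. Neither would have met the detection filter from the wild-type libraries alone, and some wild-type libraries do not list C1rb. Clec3b has the same mean, 11.6, in both genotypes.

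Complement genes leaned to the deleted hosts without a single call. Of 11 tested, 10 differences were positive and 5 had an unadjusted p under 0.05 (10.6% over all genes), with a median of 0.65 against 0.03 for all genes. Their levels summed to 138, 84.1, 79.1 and 72.8 UMIs per 10000 in deleted libraries 3, 4, 7 and 8, and to 71.7, 115, 53.3 and 34.9 in wild-type libraries 1, 2, 5 and 6. Library 2, which is not in the fit, lies inside the range of the deleted libraries. C3 was at 64.3, 27.3, 23.9 and 20.7 UMIs per 10000 in the deleted libraries and at 31.9, 44.2, 9.27 and 6.80 in the wild-type libraries, and the genotypes overlapped (log2 difference 1.66, SE 0.61, limma adjusted p = 0.377). Cfb, factor B of the alternative pathway, averaged 3.30 ± 1.6 in deleted and 1.11 ± 0.785 in wild-type libraries (SD, n = 4 and 3; 0.86, adjusted p = 0.366).

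Other lists showed the same lack of calls. The 27 adventitial genes had 21 positive differences and a median of 0.25, or 0.11 after thinning. Tnxb, with the smallest p among them, averaged 5.67 ± 1.99 UMIs per 10000 in deleted and 2.93 ± 1.90 in wild-type libraries (adjusted p = 0.372). All 9 preadipocyte genes had a positive difference, with a median of 0.35, or 0.09 after thinning. Lpl had 9.99, 5.83, 10.1 and 4.19 UMIs per 10000 in deleted libraries 3, 4, 7 and 8 and 3.70, 10.8, 3.69 and 2.97 in wild-type libraries 1, 2, 5 and 6 (adjusted p = 0.358). Library 2 alone brings the genotypes into overlap. Of 21 inflammatory cytokine genes, 15 differences were positive, with a median of 0.32, or 0.17 after thinning. Il6 stood at 2.87, 1.6, 6.80 and 9.73 UMIs per 10000 in deleted libraries and at 0.0975, 0.219, 3.57 and 0.992 in wild-type libraries (1.02, adjusted p = 0.358), and Saa3, an acute-phase protein, at 39.3 ± 12.2 and 25.3 ± 21.2 (1.64, adjusted p = 0.358).

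No gene of stress or tissue handling passed between the genotypes. Of 22 immediate early and dissociation genes, 21 had a positive difference (median 0.38), although their summed level ran from 123 to 203 UMIs per 10000 in deleted and from 106 to 218 in wild-type libraries with at least 10 cells. Of 9 metallothionein and glucocorticoid genes 8 were positive (median 0.55, or 0.20 after thinning), with Mt2 at 31.4 ± 6.38 UMIs per 10000 in deleted and 14.7 ± 7.24 in wild-type libraries (adjusted p = 0.404). Cytosolic ribosomal protein genes had a median of -0.39, with 2 of 20 positive. The part of stress and handling in the complement and cytokine values was not tested.

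Matrix genes of activated fibroblasts had no call either. Of 17 myofibroblast and Lrrc15 fibroblast genes 6 were positive, with a median of -0.14, or -0.57 after thinning. Spon1, the matrix protein spondin-1, was at 0.611, 3.57, 0.0763 and 1.03 UMIs per 10000 in deleted libraries 3, 4, 7 and 8, and at 6.19, 2.77, 6.45 and 2.36 in wild-type libraries 1, 2, 5 and 6 (log2 difference -1.22, SE 0.29, adjusted p = 0.358). Library 4 overlapped the wild-type range. Cilp, a matrix protein that binds TGF-beta, was at 0.780, 2.25, 0 and 4.69 UMIs per 10000 in deleted libraries and at 5.36, 4.08, 3.05 and 15.2 in wild-type libraries (-1.02, adjusted p = 0.358). Autophagy genes, 20 of 24 with a positive difference, had a median of 0.04.

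**Figure D5:**
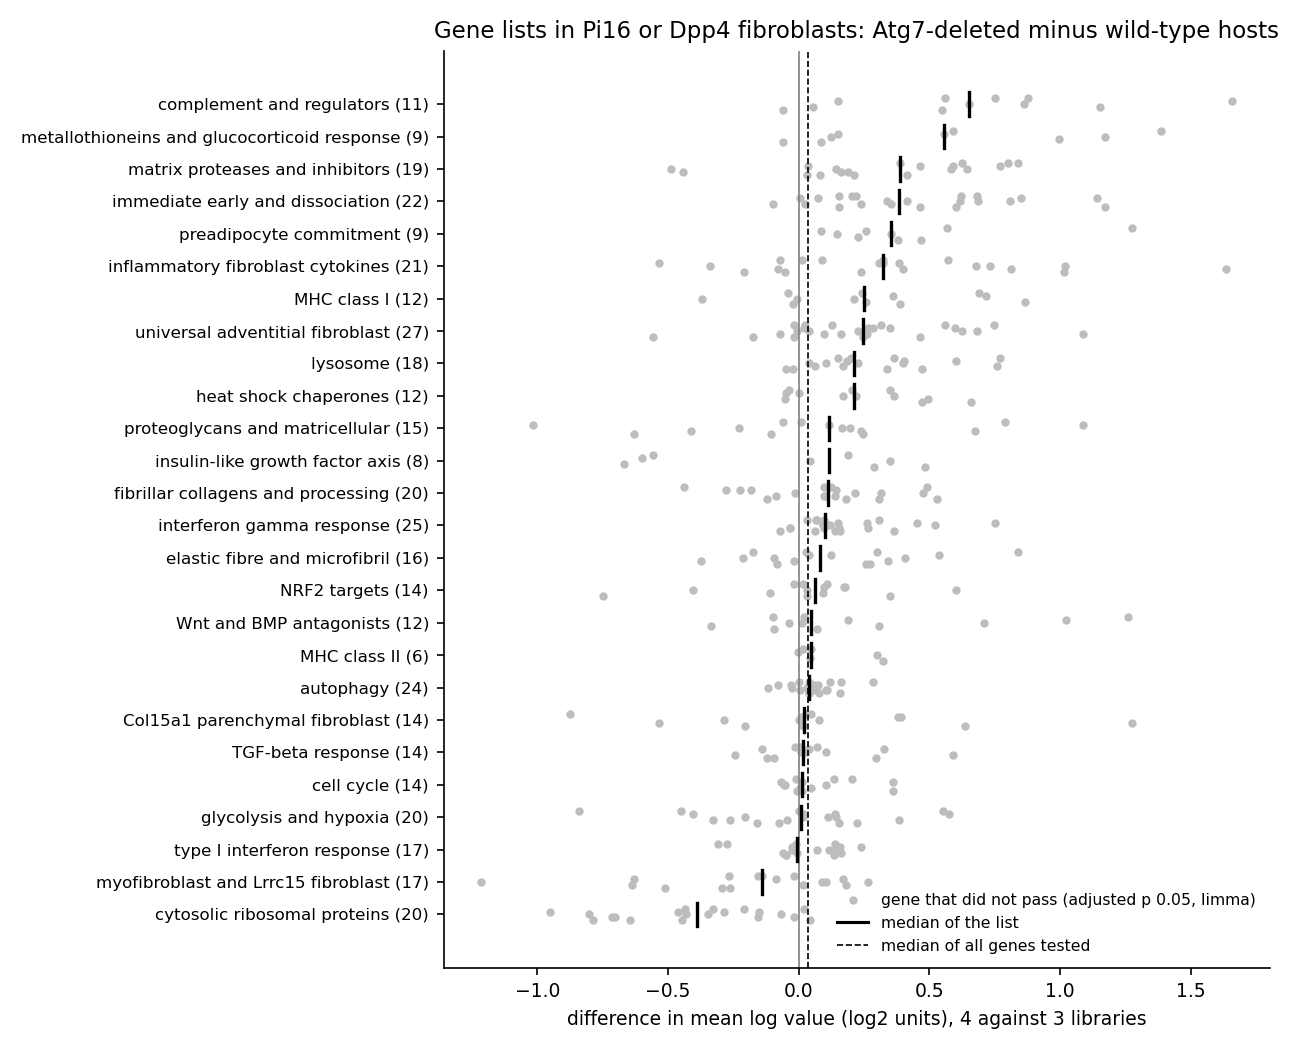
Log2 difference of each tested gene of 26 lists in Pi16/Dpp4 fibroblasts, Atg7-deleted minus wild-type hosts, with the number of genes tested in brackets. Points are genes, short bars list medians and the dashed line the median of all genes; no gene passed an adjusted p of 0.05, and medians run from -0.39 for ribosomal proteins to 0.65 for complement.

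Whether the genotypes differed by other amounts in Pi16/Dpp4 fibroblasts than in the other fibroblasts was tested on the per-library differences of libraries 3, 7 and 8 against 5 and 6. Of 9787 genes 0 passed with limma (0%), 1225 (12.5%) had an unadjusted p under 0.05, and 2979 (30.4%) did not overlap between the genotypes. Tpm2 had the largest value on the myofibroblast list (difference of differences 1.00, SE 0.15, adjusted p = 0.228). In the other fibroblasts it stood at 0.613, 0.583 and 0.913 UMIs per 10000 in deleted libraries 3, 7 and 8 and at 3.28 and 3.26 in wild-type libraries 5 and 6. Acta2 stood at 0.136, 0.133 and 1.61 in those deleted libraries and at 4.34 and 3.48 in the wild-type libraries (0.66, adjusted p = 0.305). Of the 17 genes of that list 16 had a positive value, with a median of 0.51 against 0.04 for all genes. Collagen genes (17 of 20 positive, median 0.52) and ribosomal protein genes (20 of 20, median 0.58) had medians as high. After thinning the 3 medians were 0.19, -0.02 and 0.43. Without library 5 there were 568 calls and without library 6 there were 1444, each with a single wild-type library assumed to vary like the deleted ones.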

How the data were processed

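Single-cell RNA values of 8 tumor libraries were used as deposited. The authors' matrices hold, for each gene and cell, the natural log of 1 plus its UMIs per 10000 UMIs of that cell, as the values themselves show. Cell Ranger 2.1, Seurat 3.0 and mm10 are named in the submitters' processing notes, and no further step is stated. Whole UMIs were recovered from 100% of the values (tolerance 0.01 UMI). Deposited cells had at most 5000 genes, and no doublet caller was run; leaving out cells with over 4500 genes was an alternative.

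Because the values are logarithms, limma was used and no count model was run. Per library, deposited values were averaged over cells, divided by ln 2 and compared with limma 3.58.1 in R 4.3.3 (mean-dependent prior variance, Benjamini-Hochberg over all genes tested), for genes with a UMI in at least 5% of cells in a number of libraries no lower than the size of the smaller group. Shares and depths were compared by two-sided exact permutation over libraries. The fits were checked on simulated data. Total UMIs ran from 4371773 to 59235799 per library; Pi16/Dpp4 fibroblasts of the 3 wild-type libraries tested held 262024 UMIs in all, so scarce genes there rest on few counts. Coordinates are from GENCODE M21 (98.7% of 19024 symbols matched). Python 3.11.15, numpy 2.4.6, scipy 1.17.1, pandas 2.3.3 and matplotlib 3.10.9 were used.

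The cells and gene lists were chosen with earlier results of these data known. Named genes are, per comparison, up to 12 higher and 12 lower with the smallest adjusted p, and per list those with the smallest p or the highest level; Pianp, C1rb, their neighbours and the other called genes of a list were added after their values were seen. Alternatives covered thinning to 1000 UMIs, thresholds of 1 and 3 on the matrix genes, no detection filter and at least 20 cells. They also covered summed UMIs under 2 scalings (prior count 1), a barcode set term and leaving out each library. Thinning left out cells with fewer than 1000 UMIs. For gene levels the cells were chosen before thinning, and for shares after it. Added after the data had been seen were looser exclusion genes (under 2), permutation within barcode sets, leaving Krt18-positive Ptprc-negative cells out of the total, at least 5 cells and weights by cells (up to 30).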

Additional observations from a re-analysis of the deposited data

Results flagged for a closer look

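In 10 of 102 groups of 4 or 5 values, 1 library lay far from the rest by Dixon's criterion, which chance alone gives in about 1 of 20 groups. In Pi16/Dpp4 fibroblasts of deleted hosts, C3 in library 3 was at 64.3 UMIs per 10000, against 20.7 to 27.3 in the other libraries. Plin2 in library 3 was at 2.46 UMIs per 10000 (others 0.432 to 0.749). Library 4 stood out for Atg7, at 0.474 (others 0.0289 to 0.0506), and for Tpm2, at 0.847 (others 0.225 to 0.319). C1rb in library 7 was at 1.63 (others 0.607 to 0.761), and Tgfbr2 in library 8 at 4.51 (others 5.75 to 5.94).

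In the log2 differences between Pi16/Dpp4 and other fibroblasts, library 5 stood out for C3, at 2.06 (others 1.14 to 1.36), and for Has1, at -0.36 (others 0.72 to 1.01). Library 3 stood out for Cd74, at -0.54 (others -0.22 to -0.10), and for Gm42418, at 0.69 (others 0.15 to 0.27).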

How the results depend on the processing

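No paired analysis was possible because the library numbers are not shared between the genotypes. The difference in the share of all cells ran from 4.49 to 13.0 percentage points when 1 library was left out, with an exact permutation p = 0.171 without any 1 wild-type library, permutation within barcode sets left it at 9.97 with p = 0.0556, and without Krt18-positive Ptprc-negative cells in the total it was 10.2 with an exact permutation p = 0.0571. Counts of genes called between genotypes (0) were 146 with summed UMIs and median-ratio scaling, 2 with at least 5 cells, and 0 to 8 with 1 library left out (2 without library 4 or 5, 8 without library 8). Against the other fibroblasts (97) they were 2 with summed UMIs under either scaling, 13 after thinning, 0 with no detection filter (863 at an unadjusted p under 0.05), 274 with at least 20 cells, 342 with matrix genes at 3 or more, and 28 to 98 with 1 library left out (28 without library 3, 61 without library 6). The genotype difference between fibroblast kinds (0) gave 0 to 1444. Cells with Pi16 alone against Dpp4 alone (3) gave 62 after thinning and 0 with no detection filter. With fewer cells or libraries tested the counts change by construction; otherwise the cause was not tested.

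At least 20 cells gave no value for the genotype, between-kind and Pi16-Dpp4 comparisons, and matrix genes at 3 or more none for the last 2. Over single genes named here, 688 of their alternatives kept direction and side of the threshold, 171 lost the call, 23 gained it and 1 changed sign (Bnip3 between fibroblast kinds, -0.14 after thinning). Many of the 688 belong to genes that had not passed and so had no call to lose. Apart from 4 for Gm42418 between Pi16 and Dpp4 cells, the 171 losses fell on genes called against the other fibroblasts. Clec3b, for example, kept the call in 9 alternatives and lost it in 3. Wild-type libraries held 15, 5, 15 and 17 Pi16/Dpp4 fibroblasts, which limits every genotype comparison of levels.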
